A study of Homo sapiens with 12 samples.

Results

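The transcriptomes of HaCaT keratinocytes after exposure to hydrogen peroxide (H2O2) and after exposure to cerium oxide (CeO2) nanoparticles were compared directly, using 8 of the 12 libraries of the series. HaCaT is an established line of human skin keratinocytes. It was used as 4 derivatives, each carrying 1 short hairpin RNA: a control hairpin (shControl), or a hairpin against MLL1 (shMLL1), UTX (shUTX) or NRF2 (shNRF2). The 8 libraries are the 4 derivatives after 24 h in 100 µM H2O2 and the same 4 derivatives after 24 h with 25 µg/mL CeO2 nanoparticles. The untreated library of each derivative did not enter the comparison and is given beside the values of the called genes as a reference. All cells carried a hairpin and grew in DMEM with fetal bovine serum. There was 1 library for each combination, each derivative is 1 line, and the labels do not say whether libraries came from separate cultures. Every p-value therefore rests on the spread of the H2O2 to CeO2 difference among the 4 derivatives, which may be partly technical. In the edgeR test that spread is drawn toward that of other entries, with 15.9 prior degrees of freedom beside 3 residual ones.

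H2O2 is a small oxidant that crosses membranes, oxidises cysteine thiols and, with iron, yields hydroxyl radicals. Cells remove it with catalase, peroxiredoxins and glutathione peroxidases, and NRF2 drives many genes of this defence through antioxidant response elements. Cerium oxide nanoparticles carry cerium in more than one oxidation state and can act as antioxidants or as pro-oxidants, depending on the conditions. Mitochondria are both a source and a target of oxidants, and their genome encodes core subunits of the respiratory chain. Sustained oxidative stress can also halt keratinocyte division through inhibitors of cyclin-dependent kinases such as p15 and p16.

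Names and reads match in only a part of the deposited tables, so genes were read by name only in 5 chromosome stretches (GRCh38) and the mitochondrial genome. The stretches were chr5:218241-44820428, chr9:19375715-37801437, chr11:236546-842545, chr18:3247481-12344320 and chr19:867630-6393981. They hold 1587 of the 61498 entries, 535 of them protein-coding. Total counts ran from 5667417 to 7342021 in the H2O2 libraries and from 6486721 to 7670446 in the CeO2 libraries. The H2O2 to CeO2 ratio of total counts was 1.07 in shControl, 0.874 in shMLL1, 0.890 in shUTX and 0.774 in shNRF2. None of the 23 keratinocyte, fibroblast, melanocyte and immune markers chosen for a check of cell type lies in the stretches, and neither do the genes targeted by the hairpins, so these were not read. The labelled cell type was therefore not checked against defining markers. Of genes inside the stretches, the epidermal water channel AQP3 was at 201 to 417 CPM (counts scaled to a library total of 1e6) in the 8 libraries and the interleukin 7 receptor gene IL7R, known from lymphocytes, at 216 to 620 CPM. The keratinocyte chemokine CCL27 and the chemokines CCL19 and CCL21 had 0 counts in all 8.

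After H2O2, the cell cycle inhibitor gene CDKN2B took a larger share of scaled counts than after CeO2. So did 4 mitochondrially encoded genes (MT-ND1, MT-ND2, MT-ND3 and MT-RNR1) and CBARP, CACTIN-AS1, FUT3 and MEX3D. Smaller shares went to the GTPase gene HRAS, the nuclear lamina gene LMNB2 and TNFAIP8L1. These are shares of counts, and the amount of RNA per cell was not measured. The differences were small, from 1.13-fold for LMNB2 to 1.91-fold for CACTIN-AS1, and each had the same direction in all 4 derivatives. In bulk RNA, a change in the share of cells in some state and a change in RNA per cell cannot be told apart. These 12 were the only named entries past an adjusted p of 0.05 in edgeR's quasi-likelihood test with derivative as a block. They make up 2.51% of the 478 matched entries tested, beside 1.14% of all 10502 entries tested (120 called). Of the 12, 8 were among the 462 nuclear entries of the stretches and 4 among the 16 mitochondrial ones. The 9 higher entries stand beside 0.781% of all entries called higher after H2O2 (82), and the 3 lower ones beside 0.362% called lower (38). At an unadjusted p under 0.05 there were 78 matched entries and 1262 in all.

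Signs shared by all 4 derivatives were seen in both directions. Of the 478 matched entries, 66 were above 0 in every derivative, 13.8% beside 9.67% of all entries, and 48 were below 0 in every derivative, 10.0% beside 9.86%. The 66 include 14 of the 16 mitochondrial entries, which are not independent of each other. The median log2 difference was 0.01 over the matched entries and 0.00 over all. Its median size without sign was 0.08 in the matched entries and 0.11 over all.

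**Figure D1:**
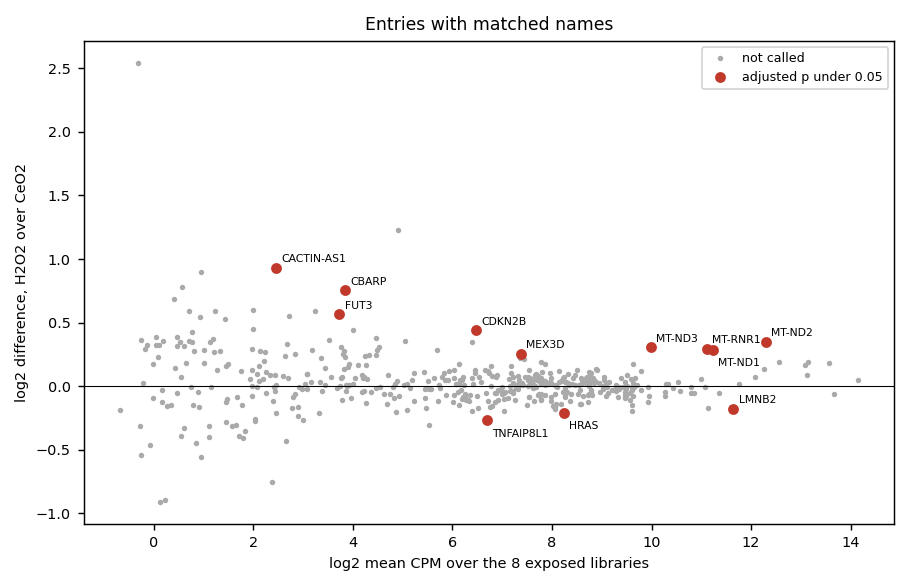
Fitted log2 difference (H2O2 over CeO2) against the log2 mean CPM over the 8 exposed libraries for the 478 matched entries. Filled red points are the 12 entries past an adjusted p of 0.05, and they run from CACTIN-AS1 at 0.93 to TNFAIP8L1 at -0.27.

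CDKN2B encodes p15, an inhibitor of the kinases CDK4 and CDK6 that holds cells in G1. In shControl the gene (ENSG00000147883, chr9:22002903-22009363, minus strand) was at 101 CPM after H2O2 and 75.2 CPM after CeO2. In shMLL1 it was at 42.3 and 30.1 CPM, in shUTX at 171 and 122 CPM, and in shNRF2 at 94.5 and 73.9 CPM. Every derivative was higher after H2O2, while the groups overlap, since shMLL1 was low and shUTX high in both. The log2 difference was 0.44 ± 0.06 (SE, 4 pairs), 1.36-fold, with an edgeR adjusted p of 0.00105, the smallest among the matched entries. The H2O2 to CeO2 ratio within a derivative ran from 1.29 to 1.40, and its exact 95% interval, which covers counting error only, excluded 1 in all 4. The untreated libraries held 80.4, 35.8, 122 and 75.6 CPM in the same order, below the H2O2 library in every derivative. CDKN2B overlaps CDKN2B-AS1 on the other strand, which was at a log2 difference of -0.21 ± 0.15 (adjusted p = 0.634).

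CDKN2A, the neighbour that encodes p16 and ARF, was at a log2 difference of 0.13 ± 0.05 and did not pass the test (edgeR adjusted p = 0.298). The list of 19 tested genes of mitosis, replication and DNA repair held CDKN2B as its only call, beside 0.781% of all entries called higher. It had 12 members above 0 and 7 below and a median of 0.03. TERT, the telomerase reverse transcriptase, was at 13.3, 19.4, 21.5 and 18.5 CPM after H2O2 in shControl, shMLL1, shUTX and shNRF2. After CeO2 it was at 9.02, 16.8, 18.9 and 10.0 CPM. All 4 pairs lay the same way, but the log2 difference of 0.44 ± 0.13 did not pass the test (adjusted p = 0.127).

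The upstream sequences of 3 called genes are shown because promoters of oxidant-responsive genes can carry the antioxidant response element. They are the bases before the RefSeq start (GRCh38.p14) that lie outside the GENCODE gene, written 5′ to 3′ on the gene's strand. CDKN2B (chr9:22009364-22009555, minus strand) and MEX3D (chr19:1568326-1568575, minus strand) were higher after H2O2, and LMNB2 (chr19:2456997-2457209, minus strand) was lower. Capitals mark matches on either strand to the core of the antioxidant response element (TGACNNNGC), the AP-1 motif (TGANTCA), the CCAAT box (CCAAT) or the GC box (GGGCGG). The antioxidant core and the AP-1 motif can overlap.
CDKN2B: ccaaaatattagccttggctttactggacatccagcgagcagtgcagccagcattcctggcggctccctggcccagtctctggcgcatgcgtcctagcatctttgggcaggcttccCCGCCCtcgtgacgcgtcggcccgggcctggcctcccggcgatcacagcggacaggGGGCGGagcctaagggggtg
MEX3D: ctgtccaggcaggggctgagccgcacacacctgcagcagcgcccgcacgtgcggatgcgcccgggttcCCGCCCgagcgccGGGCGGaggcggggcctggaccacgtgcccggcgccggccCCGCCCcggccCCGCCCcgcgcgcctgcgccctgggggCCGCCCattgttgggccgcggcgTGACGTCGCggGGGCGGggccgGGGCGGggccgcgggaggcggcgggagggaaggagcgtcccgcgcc
LMNB2: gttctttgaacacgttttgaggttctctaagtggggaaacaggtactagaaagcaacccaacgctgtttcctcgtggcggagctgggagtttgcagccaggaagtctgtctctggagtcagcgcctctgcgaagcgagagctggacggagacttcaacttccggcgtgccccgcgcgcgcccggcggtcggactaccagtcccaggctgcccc
RefSeq gave a promoter for 7 of the 8 called nuclear genes. In the 250 bases before the start, the antioxidant core was found in MEX3D alone of the 7, and in 10.9% of all 35116 promoters. The AP-1 motif was in 0 of the 7 and 6.57% of all, and the CCAAT box was in HRAS alone and in 32.0% of all. A GC box was in 6 of the 7, all but TNFAIP8L1, and in 42.6% of all promoters; that of LMNB2 lies in the bases inside the GENCODE gene, which are not shown. All 35116 promoters were counted whatever the gene type, whereas the 7 genes are all protein-coding, so the shares are not a like background. A match describes letters in a window and not a bound site.

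MT-ND2 and the 3 other mitochondrial genes called were higher after H2O2 in all 4 derivatives. The human mitochondrial genome encodes 13 respiratory chain proteins, 2 ribosomal RNAs and the tRNAs that translate them, and most of its genes are read from the heavy strand as long transcripts that are then cut. MT-ND2 (complex I, chrM:4470-5511) was at 5376, 4763, 6477 and 5817 CPM after H2O2 in shControl, shMLL1, shUTX and shNRF2. After CeO2 it was at 4534, 3861, 5708 and 3703 CPM. Each derivative was higher after H2O2, most so shNRF2, and the groups overlap. Untreated, MT-ND2 was at 4346, 4649, 5675 and 4866 CPM, below the H2O2 library in all 4 derivatives. The fitted log2 difference was 0.35 ± 0.06 (SE, 4 pairs), 1.27-fold (edgeR adjusted p = 0.00392).

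MT-ND3, another complex I subunit (chrM:10059-10404), was at 1194, 1070, 1123 and 1085 CPM after H2O2 and at 846, 907, 1057 and 829 CPM after CeO2. Its groups do not overlap, and the CeO2 libraries were also below the untreated ones (1317, 1246, 1116 and 1095 CPM) in all 4 derivatives. In the fit the log2 difference was 0.31 ± 0.06, 1.24-fold (adjusted p = 0.00903). In all, 4 matched entries had groups that do not overlap, 0.837% beside 2.04% of all entries tested, and MT-ND3 was the only mitochondrial one.

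MT-ND1 (complex I, chrM:3307-4262) was at 2541, 2325, 3065 and 2620 CPM after H2O2 and at 2257, 1987, 2623 and 1840 CPM after CeO2. Its within-derivative ratio was 1.15 to 1.16 in 3 derivatives and 1.44 in shNRF2. Without exposure MT-ND1 was at 2265, 2306, 2582 and 2269 CPM, below the H2O2 library in every derivative. The log2 difference was 0.29 ± 0.05 (adjusted p = 0.00639). MT-RNR1, the small ribosomal RNA (chrM:648-1601), was at 2182, 2019, 3282 and 2206 CPM after H2O2 and at 1670, 1724, 2985 and 1661 CPM after CeO2. Its log2 difference was 0.29 ± 0.05 (adjusted p = 0.00429), with the smallest ratio, 1.09, in shUTX, and its groups overlap, as do those of MT-ND1. MT-RNR1 untreated was at 2195, 2193, 3067 and 1852 CPM, above CeO2 in all 4 derivatives and above H2O2 in 2.

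Each of the 13 mitochondrial protein genes had a log2 difference above 0, with a median of 0.14, beside 0.00 over all entries. Of these, 3 passed the test, beside 0.781% of all entries called higher. Of the 13, 11 were above 0 in all 4 derivatives, beside 9.67% of all entries, the exceptions being MT-ND5 and MT-ND6. The range ran from 0.02 for MT-ND6 (adjusted p = 0.922), the only one of the 13 encoded on the light strand, to 0.35 for MT-ND2. MT-CO1, the catalytic subunit of cytochrome c oxidase, was at 0.05 ± 0.04 (adjusted p = 0.692). MT-ND4 was at 0.19 ± 0.05 and stayed just outside the threshold (adjusted p = 0.0540), as did the large ribosomal RNA MT-RNR2 at 0.18 ± 0.05 (adjusted p = 0.0634). The heavy-strand genes are cut from long shared transcripts and all were measured in the same libraries, so they are not independent of each other.

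**Figure D2:**
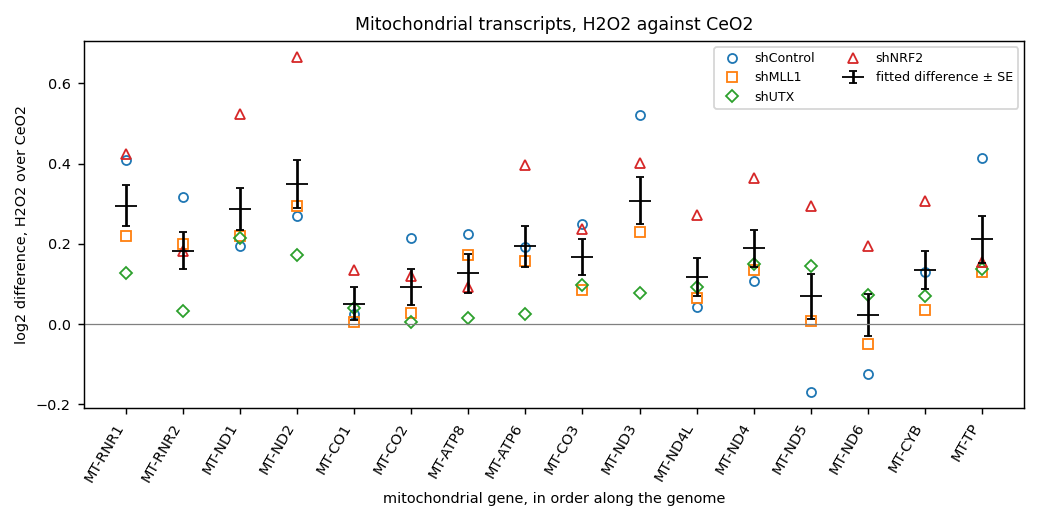
Log2 difference (H2O2 over CeO2) of the 16 mitochondrial entries tested, in genome order. Open symbols are the 4 derivatives (CPM scaled by TMM, pseudocount 1 CPM) and black marks the fitted difference ± SE. All 16 fitted differences lie above 0, and shNRF2 is the highest derivative in 10 of the 16 and shControl in the other 6.

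Mitochondrial transcripts took a mean of 8.93% ± 0.771 of all counts after H2O2 and 8.09% ± 0.787 after CeO2 (SD, n = 4 each), against 8.88% ± 0.415 untreated. In shControl, shMLL1, shUTX and shNRF2 the untreated share was 9.30, 8.99, 8.31 and 8.91%. After H2O2 it was 10.0, 8.18, 8.72 and 8.83%, above untreated in shControl and shUTX only. After CeO2 it was 9.15, 7.58, 8.20 and 7.41%, below untreated in every derivative. The share was higher after H2O2 by 0.856 points in shControl, 0.596 in shMLL1, 0.515 in shUTX and 1.42 in shNRF2. The mean paired difference was 0.846 ± 0.407 points (SD, n = 4). An exact two-sided sign-flip permutation test gave p = 0.13, which is the smallest value that 4 pairs allow. Fewer mitochondrial transcripts per cell and a change in the rest of the RNA cannot be told apart from such shares. When TMM and library sizes were taken from nuclear entries alone, a setting chosen after seeing the data, the same 12 entries were called, with 1 further entry.

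**Figure D3:**
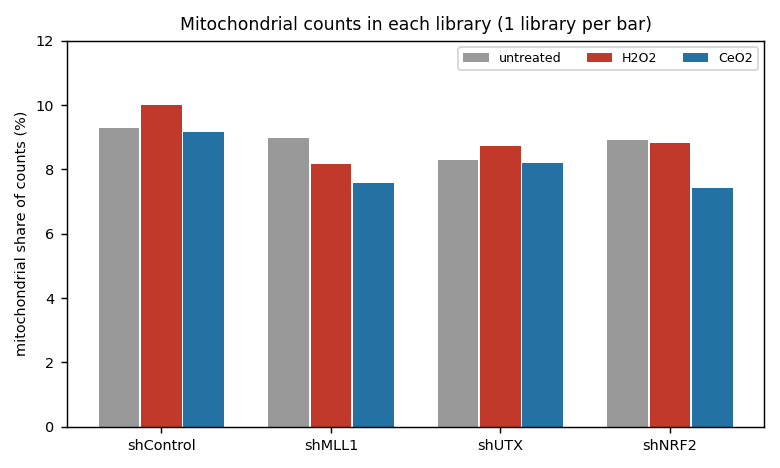
Share of all counts on mitochondrial genes (%) in each of the 12 libraries, 1 library per bar, by derivative and treatment. The H2O2 bar is above the CeO2 bar in all 4 derivatives, by 0.515 to 1.42 points.

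Nuclear genes of mitochondria held no call, and at the 1.14% called over all entries lists of this size would hold fewer than 1. Of 8 tested nuclear genes of the respiratory chain and ATP synthase, 0 passed the edgeR test, 4 were above 0 and 4 below, and the median was -0.0046. NDUFS6 of complex I was at -0.12 ± 0.06 (adjusted p = 0.406) and ATP5F1D of the ATP synthase at 0.09 ± 0.05 (adjusted p = 0.476). Of 10 genes for the mitochondrial ribosome, protein import and quality control, 0 passed, with 5 above 0 and 5 below. MRPL54, a protein of the mitochondrial large ribosomal subunit, was at -0.19 ± 0.06 and below 0 in all 4 derivatives (adjusted p = 0.113). Whether the mitochondrial and nuclear genes differ from each other was not tested.

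The list named redox, selenium and iron also holds genes of other functions, namely GAMT, OXCT1, AMACR, SLC39A3, GADD45B and CIRBP. Of its 12 tested members 0 passed (1.14% would give fewer than 1), 9 were above 0 and 3 below, and the median was 0.05. These counts are therefore not a readout of oxidant defence alone. GPX4, the selenoenzyme that reduces lipid hydroperoxides, was at 1075 CPM after H2O2 and 1193 CPM after CeO2 in shControl. In shMLL1, shUTX and shNRF2 it was at 849, 747 and 620 CPM after H2O2 and at 706, 629 and 498 CPM after CeO2. The 3 knockdown derivatives were thus higher after H2O2 and shControl was lower. The log2 difference over all 4 was 0.17 ± 0.06 (adjusted p = 0.218), and with each derivative left out in turn it was 0.12 to 0.28. Only the omission of shControl, the pair that went the other way, gave a call (adjusted p = 0.000425), while the other omissions gave adjusted p of 0.536 to 0.578. Leaving out the opposing pair narrows the spread by construction, so that call is no separate support for a difference. CIRBP, a stress-responsive RNA-binding protein, was at -0.14 ± 0.05, with all 4 derivatives lower after H2O2 (adjusted p = 0.233).

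CBARP encodes a regulator of voltage-gated calcium channels (chr19:1228287-1238027, minus strand). It was at 16.8, 17.5, 16.5 and 20.9 CPM after H2O2 in shControl, shMLL1, shUTX and shNRF2, and at 10.5, 12.5, 12.1 and 7.82 CPM after CeO2. The groups do not overlap, and the untreated libraries (12.4, 15.3, 10.9 and 8.78 CPM) were all below the H2O2 ones. This gave a log2 difference of 0.76 ± 0.15, 1.69-fold (adjusted p = 0.0123). The ratio was 2.70 in shNRF2, with an exact 95% interval of 1.96 to 3.73, and 1.36 to 1.63 in the others, of which the shUTX interval, 0.996 to 1.85, included 1. CBARP overlaps STK11 on the other strand, which was at 0.02 ± 0.05.

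CACTIN-AS1, a non-coding gene (chr19:3607247-3613930, plus strand), was at 6.67, 7.41, 6.37 and 8.25 CPM after H2O2 and 2.91, 5.86, 3.22 and 3.39 CPM after CeO2. The groups do not overlap, but the counts were low, at 37 to 49 after H2O2 and 20 to 38 after CeO2, and the interval of the shMLL1 ratio, 0.792 to 2.01, included 1. Untreated, CACTIN-AS1 was at 6.78, 6.46, 7.05 and 1.44 CPM, above both exposures in shControl and shUTX and below both in shNRF2. The fitted log2 difference was 0.93 ± 0.21, 1.91-fold (adjusted p = 0.0334). It lies opposite CACTIN, which was at -0.05 ± 0.06.

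FUT3 encodes the fucosyltransferase that makes Lewis antigens at the cell surface (chr19:5842888-5851474, minus strand). It was at 9.26, 16.9, 15.5 and 21.6 CPM after H2O2 and at 7.27, 13.1, 10.4 and 11.7 CPM after CeO2. Each derivative was higher after H2O2, although the groups overlap and only the intervals of shUTX and shNRF2 excluded a ratio of 1. FUT3 untreated was at 7.63, 11.0, 13.2 and 9.94 CPM, below the H2O2 library in every derivative. The log2 difference was 0.57 ± 0.13, 1.48-fold (adjusted p = 0.0427), and FUT3 has close paralogs with which reads may be shared. In the list named epidermal differentiation and barrier, FUT3 was the only call among 5 tested, with 3 above 0 in all 4 derivatives. The list is a loose one, as FUT3 makes surface antigens and ACER2 is also counted with the lipid genes. Over all entries 0.781% were called higher and 9.67% were above 0 in all 4. The other list members above 0 were ACER2, an alkaline ceramidase, at 0.31 ± 0.10 (adjusted p = 0.186), and TINCR, a gene tied to epidermal differentiation, at 0.36 ± 0.12 (adjusted p = 0.189). Below 0 were AQP3 at -0.16 ± 0.06 (adjusted p = 0.248) and TJP3 at -0.18 ± 0.12 (adjusted p = 0.576).

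MEX3D encodes an RNA-binding protein with KH domains (chr19:1554669-1568058, minus strand). It was at 159, 162, 235 and 166 CPM after H2O2 and at 138, 144, 197 and 128 CPM after CeO2. Every derivative was higher after H2O2, most so shNRF2 with a ratio of 1.31, and the groups overlap. Without exposure MEX3D was at 164, 173, 225 and 135 CPM, above CeO2 in all 4 derivatives and above H2O2 in 2. Across derivatives the log2 difference was 0.26 ± 0.06 (adjusted p = 0.0240).

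HRAS, the small GTPase that relays growth factor signals to the MAP kinase cascade (chr11:532242-537287, minus strand), was at 263, 353, 238 and 264 CPM after H2O2. After CeO2 it was at 300, 416, 273 and 306 CPM. Every derivative was lower after H2O2, by ratios of 0.843 to 0.889 whose intervals all excluded 1. The untreated libraries, at 399, 434, 239 and 279 CPM, were above the H2O2 ones in all 4 derivatives. This gave a log2 difference of -0.21 ± 0.05, 1.15-fold lower (adjusted p = 0.0363). HRAS was the only call among 9 tested genes of stress kinases and growth signalling, whose median was 0.02. Over all entries 0.362% were called lower.

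LMNB2 encodes lamin B2 of the nuclear lamina (chr19:2427638-2456996, minus strand). It was at 3132, 3024, 3071 and 2773 CPM after H2O2 and at 3592, 3404, 3404 and 3203 CPM after CeO2. The groups do not overlap, and the untreated library lay between them in all 4 derivatives, at 3172, 3188, 3287 and 3102 CPM. The log2 difference was -0.18 ± 0.04, 1.13-fold lower (adjusted p = 0.0418). It overlaps TIMM13 on the same strand, which was at -0.15 ± 0.05 (adjusted p = 0.172).

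TNFAIP8L1, of the TNFAIP8 family of lipid-binding proteins (chr19:4639518-4655568, plus strand), was at 111, 106, 42.7 and 113 CPM after H2O2 and at 138, 119, 48.0 and 150 CPM after CeO2. Every derivative was lower after H2O2, and the groups overlap, since shUTX was low in both. The interval of the shUTX ratio, 0.745 to 1.05, included 1. TNFAIP8L1 untreated was at 129, 125, 45.1 and 133 CPM, above H2O2 in all 4 derivatives and above CeO2 in 1. In the fit the log2 difference was -0.27 ± 0.06, 1.20-fold lower (adjusted p = 0.0416). It overlaps MYDGF on the other strand, which was at -0.04 ± 0.05.

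**Figure D4:**
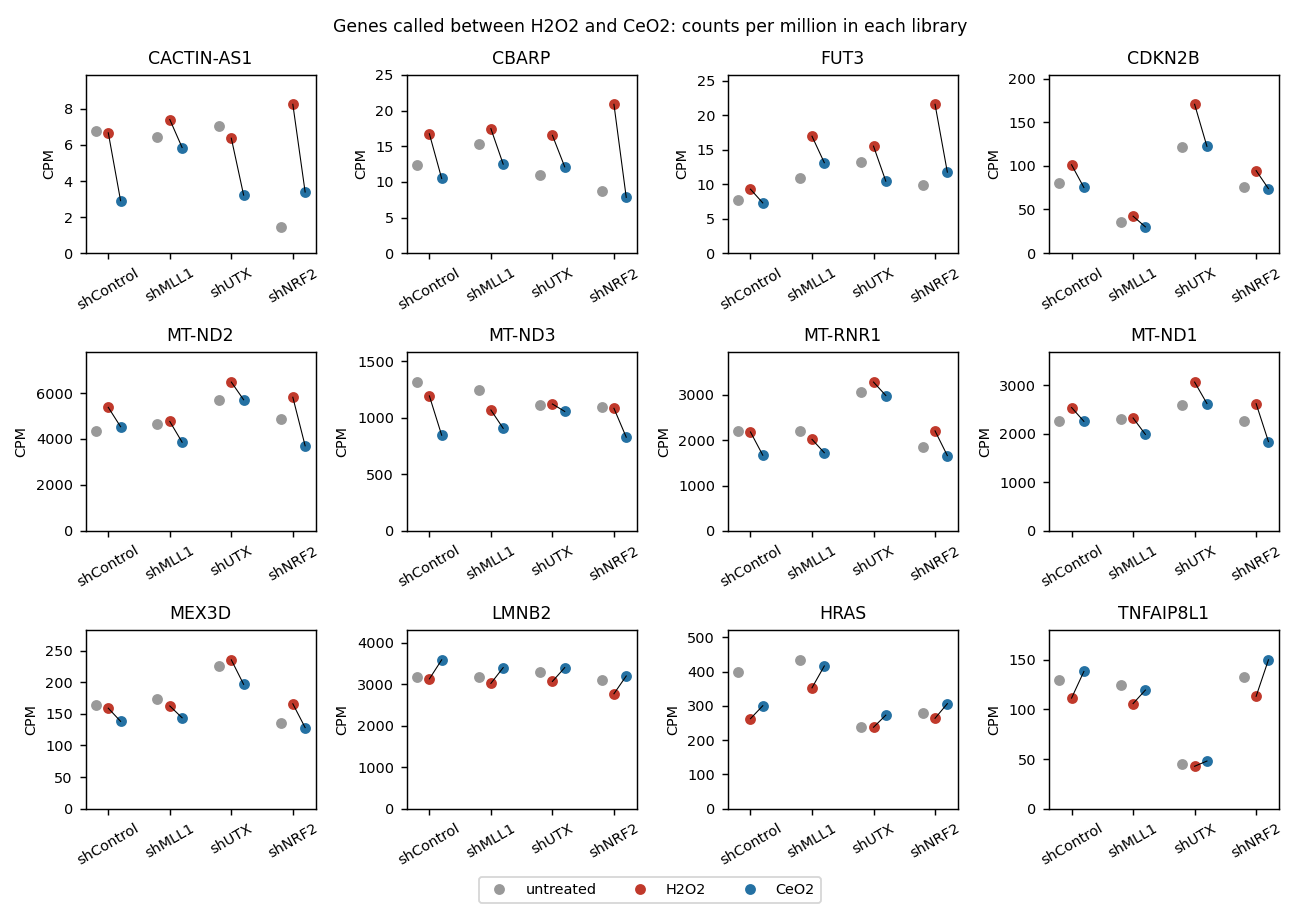
CPM of the 12 called genes in each library by derivative, on linear axes from 0, with untreated in grey, H2O2 in red and CeO2 in blue, and a line joining the H2O2 and CeO2 libraries of a derivative. The 9 higher genes fall from H2O2 to CeO2 in all 4 derivatives, and LMNB2, HRAS and TNFAIP8L1 rise in all 4.

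The other gene groups held no call, and at the 1.14% called over all entries lists of at most 16 genes would each hold fewer than 1. PTGER4, a receptor for prostaglandin E2, was at 47.5, 216, 47.0 and 72.6 CPM after H2O2 and at 50.5, 150, 31.0 and 58.8 CPM after CeO2. It was higher after H2O2 in the 3 knockdown derivatives and not in shControl. Its log2 difference of 0.35 ± 0.09 missed the threshold (adjusted p = 0.0588). With each derivative left out in turn it was 0.27 to 0.47, and only the omission of shControl, the pair that went the other way, gave a call (adjusted p = 0.000200, against 0.209 to 0.430 for the others). As for GPX4, that omission narrows the spread by construction and gives no separate support. PTGER4 overlaps TTC33, which was at -0.30 ± 0.09 (adjusted p = 0.106). In the list of inflammatory and cytokine genes 0 of 14 tested members passed, and the median was 0.05.

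VCP, the ATPase that extracts ubiquitylated proteins, was at 2048, 2202, 2313 and 1860 CPM after H2O2 and at 2372, 2381, 2503 and 2234 CPM after CeO2. It was lower after H2O2 in all 4 derivatives, at a log2 difference of -0.17 ± 0.04 that missed the threshold (adjusted p = 0.0686). The other members of the list of protein quality control and ubiquitin genes had adjusted p of 0.404 or more, so 0 of 16 passed. Of 11 genes of the cytosolic ribosome and its assembly 0 passed, with differences of -0.06 to 0.11. In lipid metabolism 0 of 9 passed, PLIN4 of lipid droplets being at -0.75 ± 0.24 (adjusted p = 0.172). Of 14 genes of actin, tubulin and adhesion and 12 of RNA polymerase II, Mediator and RNA processing 0 passed, with medians of -0.01 and -0.02. The hypoxia genes CA9 and MIR210HG were at 0.00 ± 0.16 and 0.25 ± 0.14 and did not pass.

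**Figure D5:**
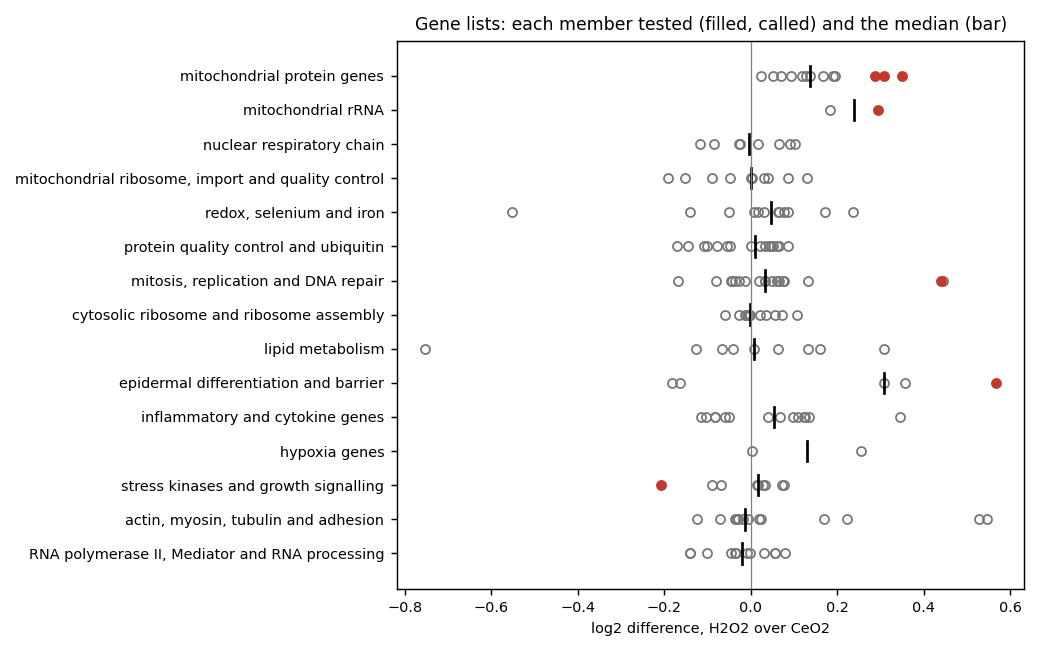
Fitted log2 difference (H2O2 over CeO2) of each tested member of 15 gene lists, with called members filled and a bar at each list's median. The mitochondrial protein genes all lie above 0 with a median of 0.14, and the nuclear respiratory chain genes lie on both sides of 0.

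By position, the 19p stretch held 6 of the calls (4 higher, 2 lower, of 155 tested), the mitochondrial genome 4 of 16, and the 9p and 11p stretches 1 each of 101 and 38. The 5p and 18p stretches held 0 of 134 and 0 of 34 calls. Over all tested entries 1.14% were called, 0.781% higher and 0.362% lower, and whether calls depend on position was not tested. Across all 387 matched genes of at least 5 CPM, called genes included, which share libraries and are not independent replicates, the Pearson r between the log2 ratios of pairs of derivatives ran from 0.02 (shControl and shUTX) to 0.47 (shControl and shNRF2). With 1 library per combination, a difference between derivatives cannot be told apart from the spread between libraries. Genes beyond 1.5-fold numbered 9 in shControl, 7 in shMLL1, 12 in shUTX and 10 in shNRF2.

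These calls rest on the spread within the exposed pairs. The common coefficient of variation beyond counting error was 0.0641 among the 8 exposed libraries, 0.117 when untreated and H2O2 libraries were fitted and 0.130 for untreated and CeO2 libraries. In a fit of all 12 libraries the log2 differences hardly moved, but 0 matched entries and 4 in all passed, and the adjusted p of CDKN2B was 0.0675. With no block for derivative 0 entries passed. Without the shNRF2 pair 3 matched entries passed, and CDKN2B (adjusted p = 0.00624) and MT-ND2 (adjusted p = 0.0330) were the only ones of the 12 among them. The 4 mitochondrial genes kept an adjusted p under 0.1 there, with MT-ND3 at 0.0915. HRAS, LMNB2 and TNFAIP8L1 also lost the call without the shMLL1 pair (0.115 to 0.240) or the shUTX pair (0.0974 to 0.173). MEX3D and FUT3 lost it without shMLL1 (0.0630 and 0.0905) or shUTX (0.136 and 0.179), and CACTIN-AS1 without shControl (0.0591) or shUTX (0.139). After a trend with transcript length was removed from each library, 13 matched entries were called higher and 0 lower, in place of 9 and 3. The trend was fitted on matched nuclear protein-coding genes but removed from every entry by its annotated length. Outside the stretches, where names and reads do not match, that length can belong to another gene. Shared spread and adjusted p in this setting carry that error. DESeq2 called 6 of the 12: CDKN2B, MT-ND1, MT-ND2, MT-ND3, MT-RNR1 and LMNB2.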

How the data were processed

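RNA-seq counts of HaCaT cells were used as deposited: unnormalized whole numbers of reads for 61498 Ensembl identifiers, with one table per agent, whose untreated columns differ in 1 cell. The submitters' processing notes list HISAT2 2.2.1, Trimmomatic 0.39, HTSeq 0.11.1 and SAMtools 1.12 with GRCh38. No source used here gives their settings, the annotation or the use of strand, which leaves overlapping genes uncertain. Names were found for 61399 identifiers and GENCODE 29 coordinates for 58298; promoters are RefSeq's (GRCh38.p14).

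The filter required 1 CPM in 3 or more of the 8 exposed libraries and kept 10502 entries. Counts were scaled by TMM and fitted with edgeR 4.0.16 (R 4.3.3; quasi-likelihood, two-sided, derivative plus treatment, 3 residual degrees of freedom), with Benjamini-Hochberg adjustment over all entries at 0.05. SEs were taken as the size of the log2 difference divided by the square root of F. They therefore carry spread shared with other entries (15.9 prior degrees of freedom) and not only that of a gene's own 4 ratios. Printed CPM use plain totals; ratios use TMM sizes. The pairing is that of the derivative: each H2O2 library was set against the CeO2 library of the same line. All adjusted p-values are edgeR's unless another tool is named. Exact 95% intervals of ratios are conditional binomial and cover counting error only. Named genes are those called that averaged 5 CPM or more and moved one way in all 4 derivatives, and up to 4 members of each list by smallest p; CDKN2B-AS1, CACTIN, MYDGF, TTC33 and other genes were named for overlapping these or as further list members. The stretches, members and lists were chosen with earlier results of these data known. The code was tested on simulated counts. Alternatives were RLE and upper-quartile scaling, other filters, DESeq2 1.42.0, limma-voom (3.58.1), all 12 libraries, no block, each derivative left out, removal of a transcript length trend and, chosen after seeing the data, scaling on nuclear entries.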

Additional observations from a re-analysis of the deposited data

Results flagged for a closer look

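Of 60 sets of 4 within-derivative differences tested for a value far from the other 3, 3 had one, and chance gives about 1 in 20. The sets were log2 ratios of genes and 1 set of mitochondrial share differences. They include linked mitochondrial genes and so are not independent. In each of the 3 flagged sets it was the shNRF2 pair that lay highest. The log2 ratio of H2O2 over CeO2 of MT-ND1 was 0.52 in shNRF2 and 0.20 to 0.22 in the other derivatives. That of MT-ND4 was 0.36 in shNRF2 and 0.11 to 0.15 in the others. MKNK2, a kinase that phosphorylates the translation factor eIF4E, was at 0.16 in shNRF2 and 0.04 to 0.05 in the others. The shNRF2 pair also had the most unequal depth, with a ratio of total counts of 0.774, and the part of depth in these values was not tested.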

How the results depend on the processing

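The number of calls changed with several settings. With no filter beyond a count above 0, 266 entries in all and 25 matched ones were called, with DESeq2 51 and 6, with all 12 libraries 4 and 0, and with no replicate block 0 and 0. With the block left out, the differences between derivatives enter the spread. Limma-voom called 19 matched entries, and adjustment over the matched stretches alone gave 29. Leaving out each derivative in turn gave 42 to 218 calls in all and 3 to 24 matched ones, fewest without shNRF2 and most without shControl; without shUTX they were 48 and 7, and without shMLL1 85 and 8. RLE and upper-quartile scaling, the 5 CPM filter, removal of a length trend and nuclear scaling gave 94 to 121 calls in all and 10 to 13 matched ones. With the length trend removed HRAS, LMNB2 and TNFAIP8L1 lost the call (adjusted p = 0.0659, 0.0675 and 0.0636). The lengths used in that setting are unreliable outside the stretches, so its calls in all and its adjusted p are uncertain. FUT3 lost it with upper-quartile scaling (0.0501) and FUT3 and LMNB2 with the 5 CPM filter (0.0550 and 0.0511). None of the 12 called genes changed direction under these alternatives. Some named genes that missed the threshold passed it elsewhere: VCP, MT-ND4 and PTGER4 in 3 of 14 alternatives each, and GPX4 and MT-RNR2 in 2. PLIN4 and ADAMTS12 did so in 1 each. CA9, at a log2 difference near 0, took values of -0.0132 (upper quartile), -0.0031 (5 CPM filter), -0.0927 (DESeq2), -0.0592 (all 12 libraries), -0.0178 (length trend) and -0.0017 (nuclear scaling), and of -0.248 (without shControl) to 0.0346 with a derivative left out. RPP25L ran from -0.0052 (without shControl) to 0.1105 with a derivative left out. The cause of these changes was not tested. The mitochondrial share difference was 0.656 to 0.956 points with a derivative left out, 0.847 over filtered entries and 0.658 for the protein genes. Depth limits genes of few counts such as CACTIN-AS1, where a count of 0 would allow up to 0.391 to 0.529 CPM.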

Other observations

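The pseudogene entry CLIC4P1 on the 9p stretch, chosen after its values were seen, split the derivatives. It held 330 counts after H2O2 and 26 after CeO2 in shControl, and 290 and 86 in shNRF2. In shMLL1 it held 153 and 158 counts and in shUTX 244 and 249. The log2 ratio scaled by TMM was 3.28 in shControl and 2.04 in shNRF2, against 0.14 in shMLL1 and 0.13 in shUTX, and over the 4 pairs the log2 difference was 1.23 ± 0.31 (edgeR adjusted p = 0.0668). Reads of this entry may be shared with its parent gene CLIC4 and with LINC01239, inside which it lies.

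More entries had at least 1 count after CeO2 than after H2O2 in all 4 derivatives, 17774 against 16832 in shControl, 16127 against 15956 in shMLL1, 16291 against 16033 in shUTX and 17280 against 16313 in shNRF2. In shControl the CeO2 library was the shallower of the pair, and in the other derivatives it was the deeper.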
